A study of Mus musculus with 4 samples.

Results

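Kidney tubule cells of mice with angiotensin II hypertension were compared with those of mice with salt-sensitive hypertension. The cells were chosen by their own transcripts. A cell counted as a tubule cell when the endothelial genes Pecam1, Cdh5, Kdr and Tie1 together held under 12 of every 10000 UMIs (unique molecular identifiers, each counting 1 captured transcript) and the tubule genes Slc34a1, Lrp2, Slc12a1 and Slc12a3 together had at least 3 UMIs. By this rule 1114 of 2837 angiotensin II cells (39.3%) and 1240 of 3284 salt-sensitive cells (37.8%) were tubule cells, or 2354 of 6121 together. The exact binomial intervals at 95% ran from 37.5% to 41.1% and from 36.1% to 39.4%. The whole series holds 10535 cells.

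The mice were C57BL/6J, aged 10 to 14 weeks. One group had hypertension induced by angiotensin II, and the other is labelled as salt-sensitive hypertension, with no further word on how that was brought about in the sources used here. The matching controls received saline or a normal diet. Kidneys of all animals in a group were pooled, digested and selected magnetically with antibodies to CD31, an endothelial protein, and then to podoplanin, a lymphatic marker, so tubule cells are what remained beside the cells sought. The study set out to find what separates the 2 hypertension models. Each group is 1 library, so a difference between groups cannot be told apart from a difference between libraries, no test was possible, and every interval below covers counting error only.

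The nephron reclaims most of the filtered water and solutes. Its proximal tubule takes up sodium with phosphate, glucose and amino acids, swallows filtered protein through the receptor pair megalin (Lrp2) and cubilin, and secretes organic ions, while the thick ascending limb and the distal convoluted tubule reclaim salt through the cotransporters Slc12a1 and Slc12a3. Angiotensin II and the mineralocorticoid aldosterone both act on these segments to retain sodium.

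Depth was close in both libraries. The angiotensin II tubule cells held 1455962 UMIs, a median of 1037.5 a cell and 834 genes, and the salt-sensitive cells held 1921102 UMIs, a median of 1171 and 944 genes. At the edge of the rule, 115 angiotensin II and 79 salt-sensitive cells had 2 tubule UMIs and were left out, and 140 and 96 had exactly 3 and were kept. Cells with at least 3 tubule UMIs that reached the endothelial limit numbered 202 and 288. The same rule took 2094 and 1287 cells of the control libraries, called 1 and 2 here because the labels do not tie either to a model. No barcode was shared between the tubule cells of the hypertension libraries, and no table lists mitochondrial genes.

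Most of these cells carried transcripts of more than 1 nephron segment. The proximal genes Slc34a1 and Lrp2 and the distal genes Slc12a1 and Slc12a3 were seen together in 71.0% of the angiotensin II cells (68.2 to 73.7) and in 91.1% of the salt-sensitive cells (89.4 to 92.7). Proximal genes alone marked 298 angiotensin II cells (26.8%, 24.2 to 29.5) and 86 salt-sensitive cells (6.94%, 5.58 to 8.49). Distal genes alone marked 25 and 24 cells. With each cell thinned to 500 UMIs, which left out 79 and 61 shallower cells, both gene pairs were seen in 48.6% and 65.4% of cells and proximal genes alone in 40% and 21.8%. Cells at or above the endothelial limit, which should lack all of these genes, carried both pairs in 13.1% of cases for angiotensin II (median depth 4535 UMIs) and 18.6% for the salt-sensitive library (2204.5 UMIs). These shares describe genes that the rule itself used, and the part of free RNA and of joined cells in them was not tested. Cells with proximal but no distal rule genes are called proximal-only cells below, which names the rule genes seen in them and not a segment. Other distal transcripts were present there: in the salt-sensitive library Umod, of the thick ascending limb, stood at 372 CPM (UMIs per 1000000) in proximal-only cells and 362 in all tubule cells.

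**Figure D1:**
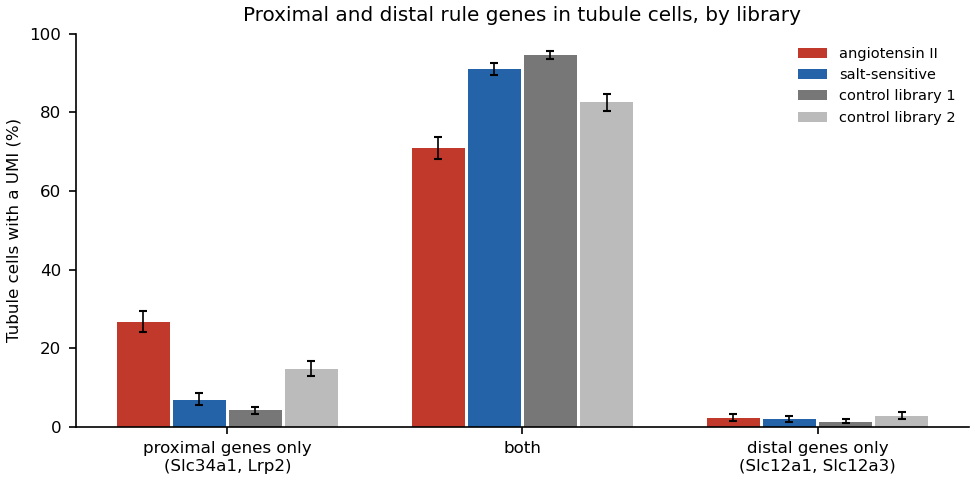
Share of tubule cells (%, vertical axis) with UMIs of the proximal rule genes only, of both pairs or of the distal rule genes only, by library, with exact 95% binomial intervals. Cells with proximal genes only were 26.8% of the angiotensin II and 6.94% of the salt-sensitive tubule cells, and the control libraries lay at 4.15% and 14.7%.

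UMIs were summed over the tubule cells of each library and scaled to CPM over the 11897 genes listed in both tables. Ratios are log2 of CPM + 5, angiotensin II over salt-sensitive, so a positive value is higher in angiotensin II, and 11107 genes with at least 20 UMIs over both libraries were counted, the 8 rule genes left out. Each interval is that of the plain ratio of UMIs, without the 5 CPM added, and at low counts it may not hold the printed ratio. Of the counted genes, 58 (0.522%) were at least 2 times higher in angiotensin II and 39 (0.351%) at least 2 times higher in salt-sensitive tubule cells. The median of all genes was 0.01, and 5706 genes (51.4%) had a ratio above 0. These shares are the background for every gene group below. Of the same genes 44.8% were higher in angiotensin II in endothelial cells of the same libraries, those at or above the endothelial limit with under 3 tubule UMIs (median −0.04), and 52.4% in tubule cells with both proximal and distal UMIs (0.02), and of the 4269 genes with at least 20 UMIs in proximal-only cells 50.8% were higher there (0.02).

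**Figure D2:**
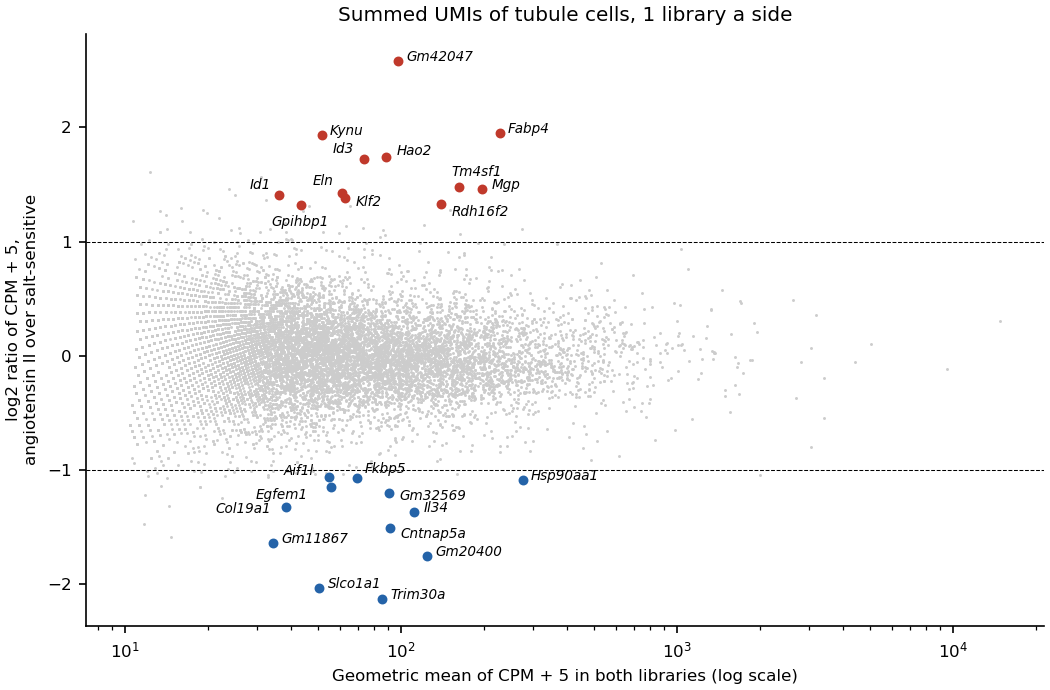
The log2 ratio of CPM + 5 (vertical axis) against the geometric mean of CPM + 5 in both libraries (horizontal axis, log scale) for the counted genes. Red and blue points are the 12 highest and 12 lowest genes with at least 100 UMIs, from Gm42047 at 2.58 to Trim30a at −2.13, and dashed lines mark a ratio of 1 and −1.

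Among the 12 genes with the highest ratios were 3 enzymes and a noncoding transcript. Hao2, a peroxisomal oxidase of hydroxy acids (chromosome 3, 98874521 to 98893239, minus strand, GRCm38), stood at 157 CPM (227 UMIs) in angiotensin II and 43.3 (83 UMIs) in salt-sensitive cells, and at 58.9 and 75.3 in control libraries 1 and 2. Its ratio was 1.74 (1.49 to 2.23), and the angiotensin II library was the highest of the 4. Kynu, the kynureninase of tryptophan breakdown (chromosome 2, 43555329 to 43682715, plus strand), had 95.9 against 21.4 CPM, with 17.0 and 7.22 in the controls, a ratio of 1.93 (1.65 to 2.70). Rdh16f2, of a retinol dehydrogenase family, had 217 against 83.0 CPM and 73.2 and 50.6 in the controls (1.33, 1.10 to 1.67). The long noncoding RNA Gm42047 (chromosome 8, 121833247 to 121841178, plus strand) gave the highest ratio, at 234.5 against 35.0 CPM (2.58, 2.36 to 3.15). Here the controls, at 87.0 and 109 CPM, lay between the hypertension libraries.

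These 4 transcripts were near the floor in endothelial cells of the same libraries, where Hao2 stood at 3.02 and 3.48 CPM, Kynu at 1.32 and 1.07 and Rdh16f2 at 3.40 and 4.82. They were as far apart in the proximal-only cells, with Hao2 at 184 against 51.3 CPM and Rdh16f2 at 257 against 51.3, although those salt-sensitive values rest on 4 UMIs each. Kynu had 28 UMIs in the proximal angiotensin II cells and 0 in the proximal salt-sensitive cells, and Gm42047 had 72 and 2. In cells with both proximal and distal UMIs the ratios were 1.70 for Hao2, 1.86 for Kynu, 1.27 for Rdh16f2 and 2.50 for Gm42047.

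Carriers of amino acids and of organic ions differed one by one. Of 13 counted amino acid transport genes, 9 were higher in angiotensin II, with a median of 0.08 and none beyond 2 times, and in the proximal-only cells 11 of 12 were higher (median 0.52). Slc7a7, the basolateral exporter of cationic amino acids, stood at 327 CPM in angiotensin II and 163 in salt-sensitive cells, with 114 and 235 in the controls, a ratio of 0.98 (0.79 to 1.21). Slc7a9, the apical cystine carrier, had 86.2 against 48.5 CPM (0.77, 0.43 to 1.23), and Slc7a8, a basolateral carrier of neutral amino acids, had 171 against 103 (0.71, 0.46 to 1.01). Slc7a13, the cystine carrier of the last part of the proximal tubule, went the other way at 266 against 418 CPM (−0.64, −0.83 to −0.47). In the proximal-only cells Slc7a13 gave 0.03. Among 20 organic anion and cation transporters 9 were higher and the median was −0.06. Slc22a5, which imports carnitine, stood at 218 against 127 CPM (0.76, 0.54 to 1.03).

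Several other genes among the highest ratios are known from endothelium. Fabp4, the fatty acid binding protein of capillaries, stood at 443 CPM in angiotensin II and 111 in salt-sensitive tubule cells, and at 17.4 and 40.2 in the controls (1.95, 1.77 to 2.23). Tm4sf1, a membrane protein of endothelium, had 267 against 92.4 CPM (1.48), and Id3, an inhibitor of DNA-binding factors, had 128 against 35.5 (1.72). Id1 (1.40), the flow-induced factor Klf2 (1.38) and Gpihbp1, the capillary anchor of lipoprotein lipase (1.32), complete them. In the endothelial cells of the same libraries Fabp4 stood at 8809 and 7060 CPM, Tm4sf1 at 2586 and 2076 and Id3 at 1675 and 1164. Fabp4 in tubule cells stood at 5.03% and 1.57% of its endothelial level, and Id3 at 7.66% and 3.05%. Subtraction of each library's endothelial profile, at the share given below for its markers, took off more than the tubule level of Fabp4, Tm4sf1, Id3, Id1, Klf2 and Gpihbp1 on both sides, so it leaves no ratio to compare. Of the 58 genes at least 2 times higher in angiotensin II, 26 (44.8%) had at least 2 times their tubule level in endothelial cells of both libraries, as did 4 of the 39 higher in salt-sensitive cells (10.3%) and 17.6% of all counted genes.

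Most endothelial markers were higher in the angiotensin II tubule cells. Of 10 endothelial markers outside the rule, 7 were higher, with a median of 0.36 and a summed level of 1942 against 1659 CPM (985 and 995 in the controls). Egfl7, a secreted endothelial factor, gave 0.75 (0.55 to 0.99), Igfbp3 0.74 (0.45 to 1.11) and Plvap, of capillary windows, 0.58 (0.31 to 0.90), while Ptprb gave −0.27 and Flt1 −0.13. The 4 rule genes of endothelium held 2.66 and 2.74 of every 10000 UMIs. At least 1 UMI of them was seen in 25.9% and 30.8% of tubule cells. The rule caps these genes in every cell, so their values cannot be set against those of the other markers. The 10 markers stood at a median of 14.4% and 14.1% of their level in endothelial cells. In those endothelial cells 7 of the 10 were higher in angiotensin II as well, with a median of 0.35. In the proximal-only cells the median of the endothelial markers was −0.43, with 2 of 9 higher. The matrix genes Mgp (319 against 113 CPM, 1.46) and Eln, elastin (95.2 against 32.4, 1.42), were also among the 12 highest, but in endothelial cells both were higher in salt-sensitive, Mgp at 206 against 465 CPM and Eln at 44.7 against 136.

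Among the genes higher in salt-sensitive cells were a transporter and a noncoding transcript of the same stretch of chromosome 6. Slco1a1, an uptake carrier of organic anions (chromosome 6, 141907282 to 141946962, minus strand), stood at 20 CPM (29 UMIs) in angiotensin II and 97.6 (187 UMIs) in salt-sensitive cells, and at 149 and 170 in the controls. Its ratio was −2.04 (−2.90 to −1.72), and the angiotensin II library was the lowest of the 4. Gm20400, an antisense transcript that overlaps Slco1a6 on the opposite strand, had 62.8 against 223 CPM and 264 and 193 in the controls (a ratio of −1.75). Slco1a6 itself had 543 against 459 CPM (0.24, 0.10 to 0.38), and since the sources used here do not say whether counting used the strand, reads of the pair cannot be told apart.

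Signalling genes followed. Trim30a, a TRIM-family gene of innate immunity, had the lowest ratio of all counted genes, with 35.9 against 174 CPM (−2.13, −2.73 to −1.85). Its controls stood far apart, at 335 CPM in library 1 and 51.6 in library 2, a gap wider than that between the hypertension libraries. Il34, a ligand of the macrophage growth factor receptor, had 64.1 against 174 CPM, with 122 and 155 in the controls (−1.37, −1.79 to −1.10). Fkbp5, a co-chaperone of steroid receptors that glucocorticoids induce, had 42.8 against 95 CPM and 139 and 229 in the controls (−1.07, −1.59 to −0.73). Cntnap5a, an adhesion gene, had 49.0 against 148 CPM (−1.51, −1.99 to −1.22), and Col19a1, a collagen chain, 19.3 against 55.8 (−1.32). For Il34, Fkbp5, Cntnap5a and Col19a1 the angiotensin II library was below the other 3.

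The remaining members of the 12 lowest were Egfem1 (−1.15), Aif1l (−1.06), the noncoding transcripts Gm11867 (−1.64) and Gm32569 (−1.20), and Hsp90aa1, described with the chaperones. A single salt-sensitive cell held 18 of the 107 UMIs of Gm11867. Gm32569, antisense to Dpt, was higher in angiotensin II among the proximal-only cells, at 88.1 against 51.3 CPM from 23 and 4 UMIs.

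**Figure D3:**
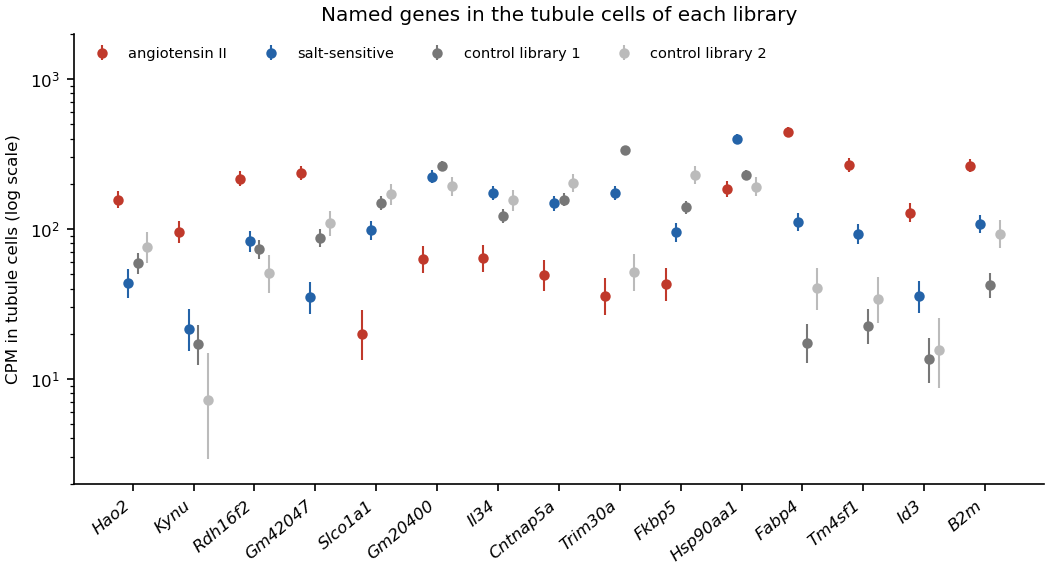
CPM (log scale) of named genes in the tubule cells of each library, with exact 95% Poisson intervals. Hao2, Kynu and Rdh16f2 were highest, and Slco1a1, Il34, Cntnap5a and Fkbp5 lowest, in the angiotensin II library, while Trim30a stood at 335 and 51.6 CPM in the control libraries.

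Markers of the distal nephron and of the last proximal part were lower in angiotensin II, and those of the first proximal part higher. Of 6 markers of the early convoluted segment S1 outside the rule, 5 were higher, with a median of 0.21. They were led by Cubn, the cubilin receptor, at 459 against 301 CPM (0.60, 0.45 to 0.77), and Gatm, of creatine synthesis, at 350 against 256 (0.44, 0.27 to 0.63). The 7 markers of segment S2 had 4 higher and a median of 0.13. Of 7 markers of the straight segment S3 only Slc3a1 was higher (0.21), with a median of −0.47, and Slc22a30 stood at 337 against 508 CPM (−0.58, −0.75 to −0.43). Summed, the S1 markers stood at 3200 against 2847 CPM, with 2947 and 3373 in the controls. The S3 markers summed to 2269 against 2929 CPM, with 3527 and 4189 in the controls, so both hypertension libraries lay below both controls. In endothelial cells the S1 median was −0.88, with 1 of 6 higher, and the S3 median −0.58, with none higher.

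Beyond the proximal tubule nearly every marker list leaned to the salt-sensitive side. Slc8a1, the sodium-calcium exchanger of the connecting tubule, stood at 1385 CPM in angiotensin II and 2864 in salt-sensitive cells, with 2302 and 2553 in the controls, a ratio of −1.05 (−1.12 to −0.97). S100g, a calcium-binding protein of the same segment, had 215 against 387 CPM (−0.83), and Calb1, calbindin, 161 against 245 (−0.59). The 5 connecting tubule markers had a median of −0.59 and 1 higher, which was Klk1 at 0.02. All 5 counted markers of the distal convoluted tubule outside the rule were lower, with a median of −0.43. Of these, Fxyd2 is also an S2 marker and Wnk1 is also among the sodium regulators below, so the lists are not separate. Of the thick ascending limb markers, Umod, uromodulin, had 212 against 362 CPM (−0.76, −0.97 to −0.58) and Egf 422 against 600 (−0.50). Cldn10, a paracellular ion channel, had 401 against 319 CPM (0.33, 0.16 to 0.50), and gave 0.53 in the proximal-only cells. Of the 5 counted markers of that limb outside the rule 2 were higher, with a median of −0.29. Aqp2, the water channel of principal cells, had 91.1 against 161 CPM (−0.79). Only 3 of 8 principal cell markers were counted, with a median of −0.66 and Scnn1b higher at 0.04. All 4 counted intercalated cell markers were lower (median −0.46).

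These sums mix cells of several segments, so fewer cells of a segment and less RNA per cell cannot be told apart. In cells with both proximal and distal UMIs the medians were smaller, at −0.31 for the distal convoluted tubule and −0.42 for the connecting tubule. In the proximal-only cells, where the distal rule genes are 0 by choice, Slc8a1 stood at 433 against 1846 CPM (113 and 144 UMIs) and Umod at 91.9 against 372 (24 and 29 UMIs). In endothelial cells the ratio of Slc8a1 was −2.35 and that of Umod −1.22. Within the proximal-only cells the S1 median was 0.69, with 6 of 6 higher, and the S3 median −0.10.

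Genes of sodium entry differed little, and their regulators differed one by one. The 6 counted genes of apical sodium entry had a median of 0.10, with the exchanger Slc9a3 at 150 against 158 CPM (−0.08, −0.34 to 0.18) and the channel subunit Scnn1a at 46.2 against 41.2 (0.15, −0.33 to 0.65). The 12 genes of the sodium pump and chloride exit had a median of −0.04. Of 15 regulators 5 were higher, with a median of −0.15. Sgk1, the kinase that aldosterone induces, stood at 109 CPM in angiotensin II and 56.9 in salt-sensitive cells, and at 37.6 and 32.0 in the controls (0.88, 0.58 to 1.30). Prss8, the protease that activates the epithelial sodium channel, had 152 against 96.0 CPM (0.64, 0.38 to 0.96). Nr3c2, the mineralocorticoid receptor, had 227 against 355 CPM (−0.63, −0.84 to −0.45), and the kinase Wnk1 466 against 632 (−0.43, −0.58 to −0.30). The subtracted endothelial profile took off the whole level of Sgk1 on both sides, and in the proximal-only cells Sgk1 gave −0.71, whereas Prss8 gave 0.66 and 0.59. Of 6 counted renin-angiotensin genes 2 were higher (median −0.06), and Agtr1a, the angiotensin II receptor, had 95.9 against 101 CPM (−0.07, −0.40 to 0.25).

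Every heat-shock chaperone gene counted was lower in the angiotensin II tubule cells. These proteins fold other proteins, and heat-shock factor induces many but not all of them when unfolded protein builds up. All 16 counted genes lay below 0, with a median of −0.51 and a range of −1.09 to −0.02, and 1 was beyond 2 times. Hsp90aa1, the inducible cytosolic HSP90 (chromosome 12, 110690605 to 110702728, minus strand), stood at 184 CPM (267 UMIs) in angiotensin II and 398 (762 UMIs) in salt-sensitive cells, with 229 and 191 in the controls (−1.09, −1.32 to −0.91). For Hsp90aa1 the salt-sensitive library stood above the other 3. Hspa5, the chaperone of the endoplasmic reticulum, had 107 against 185 CPM and 98.1 and 96.0 in the controls (−0.76, −1.07 to −0.51). Hsp90ab1, the constitutive HSP90, had 312 against 514 CPM (−0.71, −0.89 to −0.56), and Hspd1, a mitochondrial chaperonin, 45.5 against 80.4 (−0.76, −1.26 to −0.40). Hspa8 differed less, at 337 against 367 CPM (−0.12, −0.29 to 0.05). Hspa1a and Hspa1b are near-identical copies, so their separate values are uncertain.

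The same chaperones leaned this way in other cells of the libraries. In the endothelial cells 14 of 16 were lower, beside 55.2% of all counted genes, with a median of −0.50 and Hsp90aa1 at −0.92. In tubule cells with both proximal and distal UMIs the median was −0.41 and all 16 stayed below 0. Of the 8 with at least 20 UMIs in the proximal-only cells, 7 were lower, with a median of −0.71. The exception was the co-chaperone Dnaja1 at 0.80, from 30 and 5 UMIs. Of the unfolded protein and integrated stress response 11 of 12 genes were lower (median −0.22), among them Atf4 at 35.2 against 55.8 CPM (−0.60), but 6 of 12 were lower in the endothelial cells and 3 of 5 in the proximal-only cells. Of 9 hypoxia targets 7 were lower (median −0.32), while their summed level was 1743 against 1702 CPM and the 3 countable in proximal-only cells were all higher (median 0.34).

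**Figure D4:**
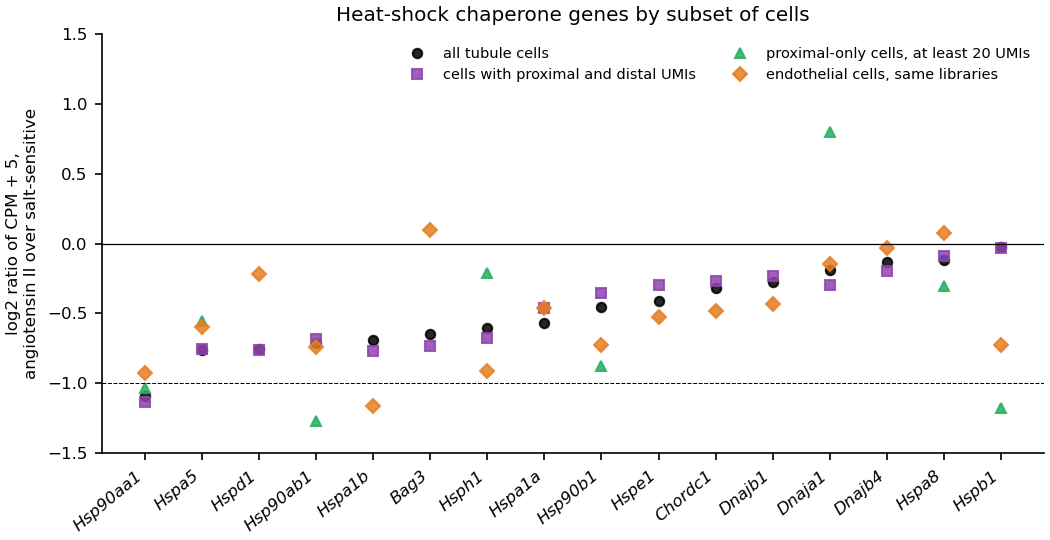
Log2 ratio of CPM + 5, angiotensin II over salt-sensitive, of each heat-shock chaperone gene in all tubule cells, in cells with both proximal and distal UMIs, in proximal-only cells (8 genes with at least 20 UMIs) and in endothelial cells of the same libraries. All 16 genes lay below 0 in all tubule cells, and Bag3 and Hspa8 were above 0 in endothelial cells.

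Promoters of 3 of these genes are shown because they hold the heat-shock element, the repeat that heat-shock factor binds. The motif was searched as GAANNTTCNNGAA and its reverse complement TTCNNGAANNTTC on both strands, from 250 bases before to 50 after the start of each gene (RefSeq, GRCm38.p6). It was found in 4 of the 13 chaperone genes that the table holds (30.8%) and in 0.662% of all 27025 genes. The fourth gene is Hspd1, whose window overlaps that of Hspe1 from the other side. Capitals mark the matches, which overlap one another in Hspe1 and Chordc1. The windows are chr1:55087898-55088197 on the plus strand for Hspe1, chr5:149636266-149636565 on the minus strand for Hsph1 and chr9:18292017-18292316 on the plus strand for Chordc1. Hspe1, the partner of Hspd1, gave −0.41 (51.7 against 70.5 CPM), Hsph1, a large HSP70 relative, −0.60 (82.1 against 127), and Chordc1, an HSP90 partner, −0.32 (62.1 against 78.8).
Hspe1: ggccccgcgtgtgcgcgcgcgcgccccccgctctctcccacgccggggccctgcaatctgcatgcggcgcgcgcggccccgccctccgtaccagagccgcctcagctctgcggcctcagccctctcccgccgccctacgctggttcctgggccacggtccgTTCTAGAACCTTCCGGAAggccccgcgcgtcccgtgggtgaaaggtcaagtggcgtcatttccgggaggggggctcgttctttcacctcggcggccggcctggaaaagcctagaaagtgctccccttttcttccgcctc
Hsph1: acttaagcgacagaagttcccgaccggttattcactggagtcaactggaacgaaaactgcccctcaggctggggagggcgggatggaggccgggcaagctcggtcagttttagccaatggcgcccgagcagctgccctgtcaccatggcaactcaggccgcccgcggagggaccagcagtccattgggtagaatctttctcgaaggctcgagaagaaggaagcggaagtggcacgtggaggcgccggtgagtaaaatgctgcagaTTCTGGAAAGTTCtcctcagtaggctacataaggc
Chordc1: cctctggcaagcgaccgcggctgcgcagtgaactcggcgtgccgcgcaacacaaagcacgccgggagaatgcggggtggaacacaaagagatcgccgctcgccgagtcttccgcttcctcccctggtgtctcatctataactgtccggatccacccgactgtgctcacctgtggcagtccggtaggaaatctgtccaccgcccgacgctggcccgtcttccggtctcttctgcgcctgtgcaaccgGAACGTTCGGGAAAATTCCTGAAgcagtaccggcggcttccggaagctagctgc

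MHC class I genes, which load and show peptides to T cells, were mostly higher in the angiotensin II tubule cells. Of 16 counted, 12 were higher, with a median of 0.50, and 3 were beyond 2 times. B2m, the light chain of class I, stood at 263 CPM in angiotensin II and 108 in salt-sensitive cells, with 41.9 and 92.9 in the controls (1.25, 1.05 to 1.54). H2-D1, a heavy chain, had 233 against 109 CPM (1.06, 0.84 to 1.35), and H2-T23 35.9 against 10.4 from 52 and 20 UMIs (1.40, 1.01 to 2.60). For B2m, H2-D1 and H2-T23 the angiotensin II library was the highest of the 4. Tapbp, the peptide-loading chaperone, stood at 109 CPM in both, and Tap2 had 17.2 against 26.6 (−0.51, −1.38 to 0.09). Counts of the H2 family are uncertain, since its members share sequence.

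Interferon response genes had 21 of 26 higher, with a median of 0.20 and 1 beyond 2 times. Ifitm3, an antiviral membrane protein, had 229 against 91.9 CPM (1.27, 1.05 to 1.59), Ifit3 24.1 against 12 (0.78, 0.21 to 1.83) and Ifit1 8.97 against 21.9 (−0.95, −2.31 to −0.36). Endothelial cells of the same libraries had the class I and interferon lists at higher summed levels and with larger median ratios. Class I genes summed to 1381 against 848 CPM in tubule cells and to 14259 against 8745 in endothelial cells, where all 16 were higher (median 0.70), and the interferon median there was 0.50 with 24 of 26 higher. In tubule cells B2m stood at 7.12% of its endothelial level in angiotensin II, and H2-D1 at 6.47%, both below the share that was subtracted. After that subtraction 10 of 16 class I and 13 of 26 interferon genes were left at 0 CPM on both sides, so both medians were 0.00, with 1 and 5 genes higher. In the proximal-only cells Ifitm3 stood at 226 against 320 CPM, and 4 of 6 countable class I genes were higher. The 7 class II genes differed little, with a median of 0.07 and 6 higher, beside 1.07 and 7 of 7 in endothelial cells.

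Promoters of B2m and H2-T23, the most different class I genes, are shown for the interferon-stimulated response element. It was searched as TTTCNNTTTC and its reverse complement GAAANNGAAA in windows of the same kind, and was found in 3 of 14 class I genes (21.4%), which were B2m, H2-T23 and Psme1, in 12 of 19 interferon response genes (63.2%) and in 3.99% of all genes. Capitals mark the match. The windows are chr2:122147437-122147736 on the plus strand for B2m and chr17:36032652-36032951 on the minus strand for H2-T23.
B2m: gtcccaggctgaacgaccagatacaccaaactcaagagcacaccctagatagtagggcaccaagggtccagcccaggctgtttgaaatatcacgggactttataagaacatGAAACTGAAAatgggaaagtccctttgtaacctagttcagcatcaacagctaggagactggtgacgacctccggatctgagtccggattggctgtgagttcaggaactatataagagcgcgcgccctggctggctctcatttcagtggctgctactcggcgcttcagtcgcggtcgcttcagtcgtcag
H2-T23: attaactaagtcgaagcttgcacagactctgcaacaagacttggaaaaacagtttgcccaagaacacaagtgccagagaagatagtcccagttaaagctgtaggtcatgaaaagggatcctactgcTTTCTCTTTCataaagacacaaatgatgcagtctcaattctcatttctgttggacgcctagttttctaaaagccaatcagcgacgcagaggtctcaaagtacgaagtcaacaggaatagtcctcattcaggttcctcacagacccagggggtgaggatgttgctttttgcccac

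All 47 counted cytosolic ribosomal protein genes were higher in angiotensin II, each by a little. Their ratios ran from 0.03 to 0.67, with a median of 0.39 and none beyond 2 times. Rplp1, of the ribosomal stalk, stood at 556 CPM in angiotensin II and 349 in salt-sensitive cells, with 200 and 365 in the controls (0.67, 0.52 to 0.82). Rps19 had 346 against 217 CPM and 115 and 281 in the controls (0.66, 0.48 to 0.86), and Rpl38 had 372 against 365 (0.03, −0.14 to 0.19). Together these genes took 1.19% of the angiotensin II tubule UMIs and 0.935% of the salt-sensitive ones, and in control libraries 1 and 2 their shares were 0.590% and 1.04%. The direction did not hold in every cell. In cells with both proximal and distal UMIs all 47 were higher (median 0.43), in the proximal-only cells 2 of 47 were higher (median −0.65), and in endothelial cells 9 of 47 were higher (median −0.30). Of the ferritin chains, which store iron, Ftl1 stood at 877 against 535 CPM (0.71, 0.59 to 0.83) and Fth1 at 747 against 553 (0.43, 0.31 to 0.56). In the proximal-only cells Ftl1 gave 0.44 and Fth1 −0.54.

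**Figure D5:**
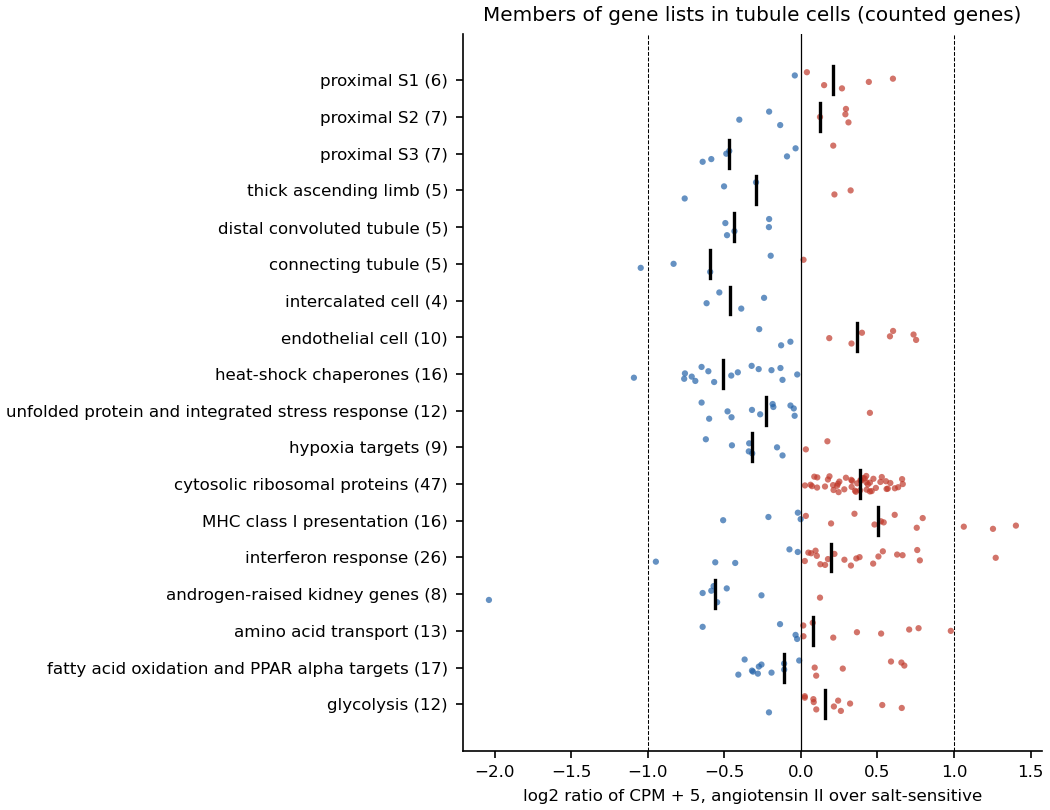
Log2 ratio of CPM + 5 (horizontal axis), angiotensin II over salt-sensitive, of each counted member of 18 gene lists in tubule cells. Black bars are medians, red and blue points lie above and below 0, dashed lines mark −1 and 1, and the number of counted members is in brackets.

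Energy and nutrient pathways lay closer to 0. Of 12 glycolysis genes 11 were higher (median 0.16), with Pfkp, a phosphofructokinase, at 65.5 against 39.7 CPM (0.66, 0.27 to 1.18) and Gapdh at 80.7 against 54.3 (0.53, 0.18 to 0.97). In endothelial cells 11 were higher as well (median 0.43), but in the proximal-only cells 2 of 5 were (median −0.26), and Gapdh gave −1.03 there and −0.06 with the endothelial profile subtracted. Nuclear genes of oxidative phosphorylation had 21 of 35 higher and a median of 0.06. Fatty acid oxidation genes had 6 of 17 higher and a median of −0.11. The PPAR alpha target Cyp4a10 had 85.5 against 51.7 (0.68, 0.33 to 1.12). Of 9 glucose making genes 3 were higher (median −0.29), and in the proximal-only cells 4 of 7 (median 0.32). Pck1, the gatekeeper of that pathway, had 93.1 against 181 CPM and 180 and 87.7 in the controls (−0.92, −1.25 to −0.66), while the basolateral glucose carrier Slc2a2 had 134 against 91.3 (0.53, 0.25 to 0.85). Cholesterol synthesis genes had a median of 0.06, circadian clock genes −0.05 and osmotic response genes −0.17.

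Single genes of other pathways passed 2 times. Gsta2, a glutathione transferase, had 88.3 against 37.6 CPM, with 24.5 and 17.5 in the controls (1.13, 0.80 to 1.67), in a list of 17 antioxidant genes whose median was 0.04. Cyp24a1, which degrades vitamin D, had 51.7 against 20.4 CPM but 45.1 and 47.5 in the controls (1.16, 0.77 to 1.94), so that the salt-sensitive library was the low one. Prlr, the prolactin receptor, had 50.4 against 22.4 CPM (1.01, 0.60 to 1.74).

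Genes that androgens raise in the mouse kidney were lower in angiotensin II. Of 8 counted, 7 were lower, with a median of −0.56 and Slco1a1 beyond 2 times. Summed, they stood at 4457 against 6366 CPM, with 4620 and 6558 in the controls. In endothelial cells none of the 8 was higher (median −0.68), and in the proximal-only cells 2 of 7 were (median −0.32). Kap, the kidney androgen-regulated protein, stood at 2827 CPM in angiotensin II and 4130 in salt-sensitive cells, with 2245 and 3230 in the controls (−0.55, −0.60 to −0.49). Odc1, of polyamine synthesis, had 82.8 against 125 CPM and 105 and 214 in the controls (−0.57, −0.93 to −0.28). Slc7a13 and Slc22a30 are also S3 markers, so the lists are not separate. The 4 Y-linked transcripts were lower too, with a median of −0.31 and Ddx3y at 121 against 164 CPM (−0.43, −0.72 to −0.17). The median of the Y-linked transcripts was 0.01 in the proximal-only cells. The sources used here do not give the sex of the pooled animals.

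Markers of other cell types were present at low levels and did not lean one way. The 6 podocyte markers were all lower (median −0.22, sum 504 against 651 CPM), with Wt1 at 79.3 against 137 CPM (−0.75). Of 5 mural markers 4 were higher (median 0.45, sum 215 against 154 CPM), with the smooth muscle genes Acta2 at 51.7 against 23 (1.02, 0.62 to 1.74) and Tagln at 34.5 against 14.6 (1.01, 0.54 to 1.96). The 4 macrophage markers listed in both tables summed to 108 against 101 CPM and the 5 fibroblast markers to 158 against 137. Of 8 markers of T, B and natural killer cells only Ptprc is listed in both tables (47.6 against 44.9 CPM). No neutrophil or red blood cell marker is listed in both. Of 20 injury and repair genes only 10 were counted, and Havcr1, Lcn2 and Sox9 are among those not listed in both tables. Of the 10 counted, 7 were higher (median 0.27). Spp1, osteopontin, stood at 90.4 against 52.2 CPM (0.74, 0.41 to 1.18) and Vim, vimentin, at 90.4 against 50.6 (0.78, 0.45 to 1.23). In the proximal-only cells these 2 gave −0.24 and −0.45, and in cells with 500 to 2000 UMIs Spp1 gave 0.12. Of 10 counted fibrosis and TGF-beta targets 6 were higher (median 0.35), and Tgfb2 gave −0.98. Fn1, fibronectin, had 33.1 against 13.0 CPM (1.08, 0.62 to 2.10), but gave −0.82 in the proximal-only cells, from 7 and 4 UMIs. Of 15 counted immediate early genes 9 were higher (median 0.16), with Nr4a1 at 24.8 against 7.31 CPM (1.28, 0.84 to 2.77).

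Among the 10 most abundant transcripts the differences were small but for 2. Magi2, a junction scaffold, stood at 2313 CPM in angiotensin II and 4032 in salt-sensitive cells, with 2295 and 2034 in the controls (−0.80, −0.86 to −0.74), and Kap is given above. Gpx3, the secreted peroxidase that the kidney supplies to plasma, had 9131 against 9902 CPM (−0.12, −0.15 to −0.08). The growth hormone receptor gene Ghr had 3122 against 2984 CPM (0.07, 0.01 to 0.12), and Pde4d, a phosphodiesterase of cyclic AMP, 3612 against 2819 (0.36, 0.30 to 0.41).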

How the data were processed

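Each deposited table gives raw UMI counts as whole numbers, genes by cells, and names no cell types. Per the labels' protocols, the kidneys of each group were pooled and digested, cells were selected first on CD31 and then on podoplanin, and libraries were droplet-based and read from the 3′ end. Among tools the submitters' processing notes list Cell Ranger 7.0.0 and Seurat 4.1, with mm10 as build but no account of their use, and the counting settings are not given in the sources used here. Tables were matched to groups by name, and 0 columns stayed unmapped. One further table joins both hypertension libraries and served as an alternative, because it holds fewer UMIs of the angiotensin II cells.

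Cells were chosen by the rule given above, in Python 3.11.15 with pandas 2.3.3, NumPy 2.4.6 and SciPy 1.17.1. No other filter on cells was applied, and no doublet caller was run. Leaving out the 5% of cells with most UMIs was an alternative. UMIs were summed over the tubule cells of each library, scaled to CPM over the genes listed in both tables, and compared as log2 of CPM + 5. Genes with at least 20 UMIs over both libraries were counted, and a gene counted as different at an absolute log2 ratio of 1. With 1 library a group there is no test. CPM have exact Poisson intervals, ratios exact conditional binomial (Clopper-Pearson) intervals and shares exact binomial intervals, all at 95%, and PCR and cell-to-cell spread are not covered.

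Endothelial cells used beside the tubule cells had at least 12 endothelial UMIs per 10000 and under 3 tubule UMIs (1211 angiotensin II and 1500 salt-sensitive cells). For the subtracted profile, chosen after seeing the data, each library's endothelial CPM times its median marker share was taken off. Genes are named by a rule: the 12 highest and 12 lowest ratios among genes with at least 100 UMIs, up to 4 members of each of 49 gene lists with the largest absolute ratio, and the 10 genes with most UMIs. Other members serve as examples that differed less. The members, lists and rule were chosen with earlier results of these data known. Promoters are from RefSeq and positions from GENCODE M21 on GRCm38, which is mm10, where 11797 of 11897 symbols were found. The ratio calculation was tested on simulated data.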

Additional observations from a re-analysis of the deposited data

Results flagged for a closer look

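Immunoglobulin genes are listed in the salt-sensitive table but not in the angiotensin II table, so they are outside the comparison above and were read from the joined table, which has 919 angiotensin II and 1247 salt-sensitive tubule cells. Igha, the heavy chain constant region of IgA, had 4 UMIs (4.09 CPM) in angiotensin II and 171 UMIs (88.2 CPM) in salt-sensitive tubule cells, a log2 ratio of −3.36 (−6.32 to −3.05), with 40.8 and 3.07 CPM in control libraries 1 and 2. Igkc, the kappa light chain, had 12 and 126 UMIs, a log2 ratio of −2.02 (−3.40 to −1.55), with 28.6 and 2.05 CPM in the controls. The UMIs of Igha were spread over 137 salt-sensitive cells, at most 6 in a cell, and those of Igkc over 93 cells, at most 16. For both genes the salt-sensitive level is above that of both controls. Other genes listed in the salt-sensitive table only shared this, such as Cckar, at 43.8 CPM against 24.7 and 30.7 in the controls. A table that leaves out genes seen in few cells would list such genes on the side where they are higher. The direction for Igha, Igkc and Cckar is therefore no result apart from that listing.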

How the results depend on the processing

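With 1 library a group no replicate could be left out. No paired analysis was possible because each group has 1 library and no result comes from a test. Distal cells alone were not run, with 25 and 24 cells. The counts of genes at least 2 times apart (58 higher and 39 lower in angiotensin II) moved by over 1.5 times under these settings: 146 and 109 with a pseudocount of 1 CPM, 30 and 15 with 10 CPM, 33 and 22 with a minimum of 100 UMIs, 98 and 82 in cells with no endothelial UMI, 96 and 89 in cells with 500 to 2000 UMIs, 156 and 129 with cells thinned to 500 UMIs, 310 and 252 in proximal-only cells, and 244 and 151 with the endothelial profile subtracted (added after seeing the data). The lower count was 84 with the mean of per-cell shares and 81 without cells with 2 or more UMIs of other cell types. The higher share of such genes was 59.8% as reported, 48.1% with per-cell shares and 47.7% without those cells. Both scalings kept the median of all genes between 0 and 0.01. All 58 higher and 39 lower genes kept their sign except in proximal-only cells (50 and 33), in thinned cells (38 of the lower), with the endothelial profile subtracted (37 and 37) and among genes also in the control table (55 of the higher are listed there). Of 800 list medians 784 stayed within their list's interval, 13 moved and 3 reversed, and of 3522 single ratios 3292, 228 and 2. A list's interval is the median of its members' lower bounds and of their upper bounds. It is wide (−0.21 to 0.67 for glycolysis), so staying inside it says little. Some settings could not move a value: leaving out shared barcodes left out no tubule cell, and another UMI minimum alters no single ratio. A value counts as reversed when its sign turned and its list's interval lay off 0 or its ratio was at least 1 in size. These, all in proximal-only cells, were the medians of endothelial markers (−0.43), ribosomal proteins (−0.65) and Y-linked transcripts (0.0139), and the ratios of Gm32569 (0.73) and Ifitm3 (−0.49), and the cause was not tested. Whatever their size, 13 of 31 list medians and 25 of 108 named ratios had the opposite sign in proximal-only cells, and at most 8 and 10 under any other setting. The salt-sensitive proximal-only cells hold 78021 UMIs, so a gene at 20 CPM has 1 or 2 UMIs there.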

Other observations

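Haemoglobin genes, also listed in the salt-sensitive table only, were higher in salt-sensitive than in angiotensin II cells of the joined table but below control library 1. Hba-a1 had 1 UMI in angiotensin II and 135 (69.6 CPM) in salt-sensitive tubule cells, and stood at 263 and 27.6 CPM in the controls. Hba-a2 had 13 and 132 UMIs (68.1 CPM in salt-sensitive), with 189 and 19.4 CPM in the controls, and Hbb-bs had 9 and 72 UMIs (37.1 CPM), with 819 and 29.7 CPM in the controls. Among transporter genes listed in the salt-sensitive table only, Slc30a2, a zinc carrier, had 4 and 56 UMIs (4.09 and 28.9 CPM), and Slc47a2, an exporter of organic cations, 10 and 55 UMIs (10.2 and 28.4 CPM). Cyp4a12a, a fatty acid hydroxylase raised by androgens in mouse kidney, had 4 and 45 UMIs (4.09 and 23.2 CPM), with 21.6 and 55.2 CPM in the controls. Aqp6, a channel of intercalated cells, had 7 and 42 UMIs (7.15 and 21.7 CPM). These genes were picked after their values were seen, and a table that leaves out genes seen in few cells would list them on the side where they are higher. The angiotensin II table alone lists 711 genes and the salt-sensitive table alone 142. Of genes in the angiotensin II table only, some were higher in angiotensin II, such as Slc7a12 (19 and 7 UMIs, 19.4 and 3.61 CPM). Others were lower, such as Nepro (1 and 23 UMIs).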
